A study of Homo sapiens with 9 samples.

Results

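The sgRNA named TRAM2-KO1 was compared with a non-targeting control sgRNA in MCF10A-YAP cells, with every gene in view and every TRAM2-KO1 library shown by itself. The comparison used 6 of the 9 RNA sequencing libraries of the series, the 3 labelled TRAM2-KO1 A, B and C and the 3 labelled control A, B and C. MCF10A is an established, non-transformed human breast epithelial line. In MCF10A-YAP cells a constitutively active YAP, the transcription coactivator of the Hippo pathway, is overexpressed, so that controls and TRAM2-KO1 cells alike carried this YAP. According to the labels both groups were transduced with an sgRNA vector, selected with antibiotic, and harvested before the dishes were confluent, after which poly(A) RNA was sequenced. The transduced cells were not described as single clones, and the study speaks of a partial knockout. The design text of the series speaks of an empty vector and of TRAM2 or YAP overexpression where the labels and the title have sgRNAs, and grouping followed the labels. The same design text gives 3 biological replicates, and nothing further says how far the cultures were kept apart, so p values measure the spread between these libraries.

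TRAM2 belongs to the family of translocating chain-associated membrane proteins, which sit at the translocon, the pore by which nascent secretory and membrane proteins reach the endoplasmic reticulum (ER). Proteins that pass this channel are folded by ER chaperones and disulfide isomerases. Collagen chains are in addition hydroxylated and assembled there before they are secreted. TRAM2 has been linked to the synthesis of collagen I, and the study asked what the cells lose when TRAM2, a target of a YAP-bound enhancer, is disrupted.

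The position of the guide in TRAM2 defines the perturbation. Matched to GRCh37, the sgRNA targets exon 7 of 11 of TRAM2, in coding sequence. Cas9 would be expected to cut at codon 200 of 370, after 54.0% of the coding bases. Allowing up to 3 mismatches, 4 other sites in the genome had an NGG motif, and 0 of the 4 lay in an exon. The closest of them had 2 mismatches and lay on chromosome 21, 6353 bases from the nearest tested gene, GART, which had a log2 fold change of 0.03. The nearest tested genes at the other sites were MIR99AHG at 0.02 (SE 0.404), HNRNPD at 0.01 and TRIP13 at 0.04, none of them past the test. A site lay within MIR99AHG, while HNRNPD and TRIP13 were 914896 and 27692 bases from theirs. The site nearest to HNRNPD lay in RASGEF1B, which was not among the genes tested. Cutting at these sites was not tested.

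TRAM2 mRNA fell by 55.5% in the TRAM2-KO1 libraries. TRAM2 (ENSG00000065308, chromosome 6, 52362206 to 52441858, GRCh37) stood at 481, 464 and 475 CPM (counts scaled to a common library size) in control A, B and C and at 219, 209.9 and 203 CPM in A, B and C of TRAM2-KO1. The 3 TRAM2-KO1 libraries were close to each other and all far below the controls. Behind these levels were 11331 to 11792 reads in a control library and 4545 to 5953 in a TRAM2-KO1 library, all on the single annotated TRAM2 transcript. On the log2 scale TRAM2 changed by -1.17 (adjusted p = 4.93e-08, SE 0.0326), with a 95% interval of -1.24 to -1.09. Each adjusted p comes from edgeR's quasi-likelihood test with Benjamini-Hochberg adjustment over the 15139 genes tested. SE stands for the standard error on the log2 scale, and a bare change is a log2 fold change. Read totals do not show which alleles were edited, and fewer expressing cells cannot be told apart from less RNA per cell. YAP1 read 340.4, 337 and 337 CPM in controls and 345, 354 and 343 CPM in TRAM2-KO1, with a log2 fold change of 0.04 (adjusted p = 0.496, SE 0.0282).

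The libraries held 25.1 to 25.3 M estimated reads in controls. TRAM2-KO1 A, B and C held 27.6, 21.7 and 26.1 M. Markers of basal epithelial cells summed to 2687 to 2761 TPM (a transcript level per length, scaled to the library) in controls and 2372 to 2541 TPM in TRAM2-KO1, with 8 of 9 markers at 1 TPM or more in every library. Markers of fibroblasts summed to 1.58 to 3.31 TPM in controls and 1.82 to 2.83 TPM in TRAM2-KO1, those of endothelial cells to 0.717 to 0.776 and 0.731 to 0.770 TPM, and those of leukocytes to 0.542 to 0.708 and 0.114 to 0.218 TPM. No marker of these 3 lists reached 1 TPM in all 6 libraries. Markers of luminal hormone-responsive cells summed to 26.9 to 30.6 TPM in controls and 21.0 to 28.1 TPM in TRAM2-KO1, and 1 of 7 was at 1 TPM or more in every library.

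The TRAM2-KO1 libraries differed from each other in how they yielded GC-rich transcripts. Among the 425 genes whose longest transcript had at least 65% GC, the median deviation of log2 CPM from the control mean was -0.03 in library A, -0.57 in library B and -0.35 in library C. Among the 2724 genes under 40% GC it was 0.01, 0.10 and 0.05. The deviations of controls stayed between -0.03 and 0.03 in every class. Across the 15139 genes, which share libraries and are not independent, the Spearman correlation of the deviation with GC content was -0.02 in library A, -0.51 in B and -0.39 in C, against -0.08 to 0.08 in controls. Values of GC-rich genes are therefore given by library, and, where they moved, after removal of each library's smooth trend with GC content (the GC offset). Its part in the results of single genes was not tested beyond these values.

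**Figure D1:**
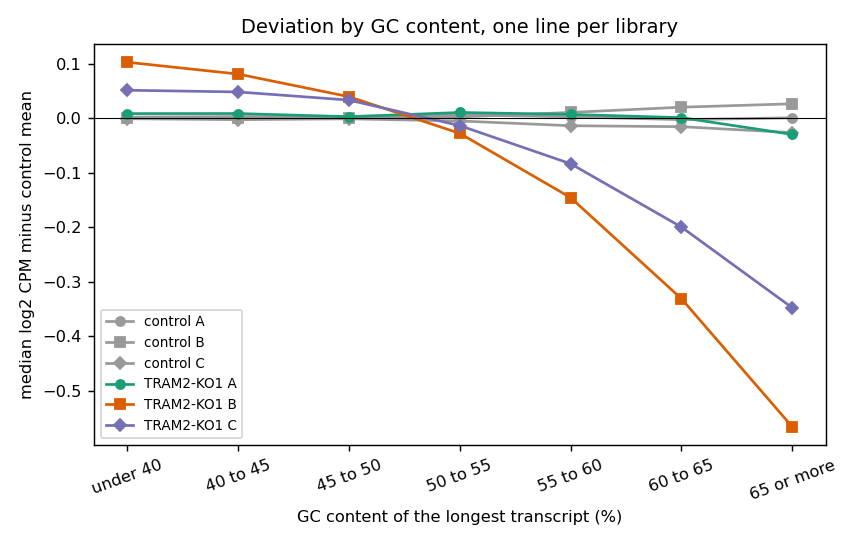
Median deviation of log2 CPM from the control mean (y axis) for 7 classes of GC content of the longest transcript in percent (x axis), with one line per library. Library A follows the controls, while libraries B and C decline with GC content and reach -0.57 and -0.35 in the class of 65% or more.

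Most genes that changed with TRAM2-KO1 were lower. At an adjusted p under 0.05 and a log2 fold change beyond 0.5, 65 genes were called lower (0.429% of the genes tested) and 8 higher (0.0528%). At an adjusted p under 0.05 and any size, 326 genes fell (2.15%) and 114 rose (0.753%). In the text below, fell and rose refer to this second count. The genes that fell had a median log2 fold change of -0.35, and those that rose one of 0.21. In all 65 genes called lower, the 3 TRAM2-KO1 libraries lay below the 3 controls. The 65 were called from these same libraries, so this adds no separate support. Over all genes tested, the 3 TRAM2-KO1 libraries lay below the controls in 11.1% and above them in 11.9%. With the GC offset 34 genes were called lower and 12 higher, 38 of them shared with the 73 above, and at any size 2.31% of genes fell and 1.06% rose. Offsets for the mean effective transcript length of each gene in each library (length offsets) left 35 genes called lower and 6 higher, 30 of the 73 among them, and 96 (0.634%) that fell and 16 (0.106%) that rose. Of the 65 genes called lower, 62 passed the test with the GC offset, 30 with the length offsets, and 43 in each of the 6 fits that left out 1 library. Leaving out TRAM2-KO1 A gave 336 genes called lower and 27 higher, and at any size 1364 (9.01%) that fell and 613 (4.05%) that rose. Leaving out another library gave 43 to 53 genes called lower. At any size, without control A, B or C or TRAM2-KO1 B or C in turn, 1.38, 1.39, 1.47, 1.79 and 1.54% of genes fell and 0.225, 0.225, 0.231, 0.41 and 0.284% rose. Counts of a list without TRAM2-KO1 A are to be read against this larger background. At an unadjusted p under 0.05, 10.0% of genes were lower and 8.51% higher, DESeq2 gave 3.14% and 1.23% at an adjusted p under 0.05, and edgeR with library A as the only TRAM2-KO1 library 1.34% and 0.159%. Named genes that did not pass with the length offsets are given in each paragraph.

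**Figure D2:**
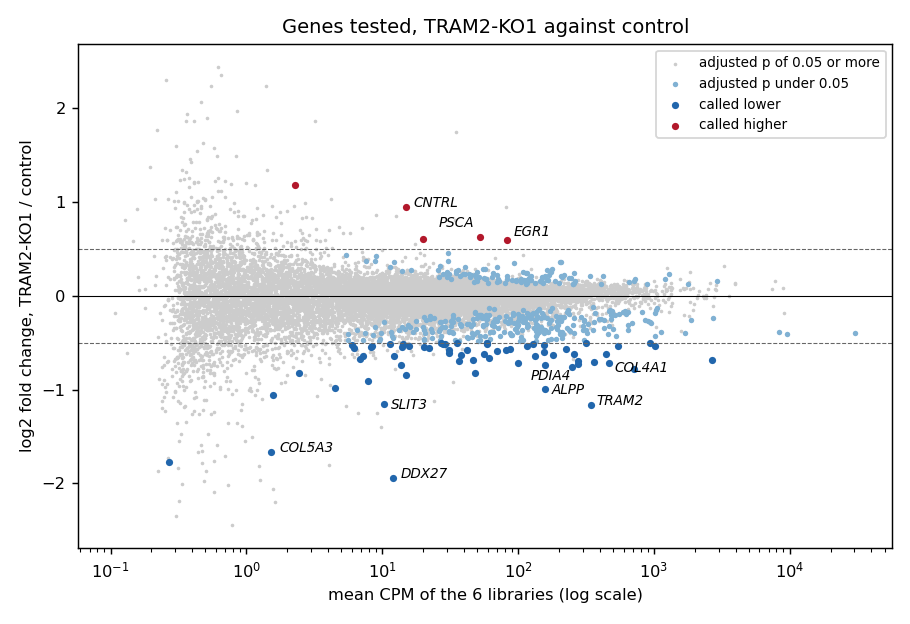
Log2 fold change of TRAM2-KO1 over control (y axis) against the mean CPM of the 6 libraries on a log scale (x axis), 1 point per gene, with dashed lines at 0.5 and -0.5. Called genes (dark blue and red) lie mostly below 0. Beyond the plotted range of 2.5 in either direction lay 28 genes, 3 of them called.

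The size of the decrease in GC-rich genes depended on the library, and that in GC-poor genes did not in the same way. Of the 65 genes called lower, 11 had a GC content under 50%, among them POSTN, ITGB6, ITGA1, DCN and ROS1, and their median deviation from controls was -0.68, -0.66 and -0.55 in TRAM2-KO1 A, B and C. For 28 genes with 50 to 60% GC, among them TRAM2, COL4A1 and PDIA4, the medians were -0.50, -0.70 and -0.60. For 26 genes with 60% or more, among them AGRN, GPC1, COL6A1 and COL4A2, they were -0.42, -0.93 and -0.68. In 25 of these 26 genes library A was nearer to the controls than both B and C, against 1 of the 11 GC-poor genes. All 65 genes were below the control mean in library A, which itself took part in the call. With the GC offset 11, 12 and 7 genes of the 3 classes were still called lower, and 11, 28 and 23 still fell.

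**Figure D3:**
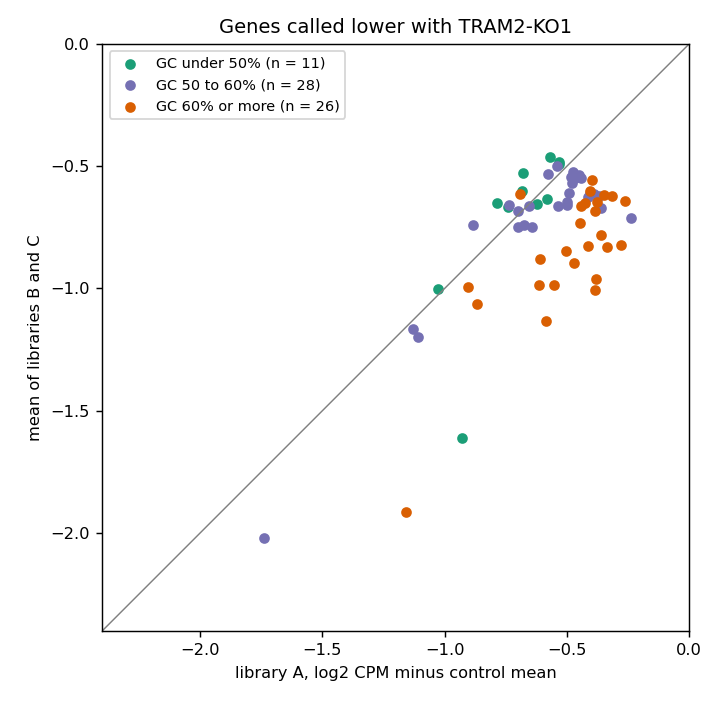
Deviation of log2 CPM from the control mean in TRAM2-KO1 library A (x axis) against the mean of libraries B and C (y axis) for the 65 genes called lower, coloured by GC content, with the line of equality. Genes of 60% GC or more lie below the line, with medians of -0.42 in A against -0.93 and -0.68 in B and C, while genes under 50% GC lie near it.

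Genes of the matrix, of cell attachment and of ER folding made up a large share of the genes that fell. Over 10 lists of such genes, 220 genes were among the 15139 tested. Of the 220, 102 fell and 2 rose, so that they held 31.3% of all genes that fell. Of the 65 genes called lower, 31 were in these lists. Their median log2 fold change was -0.28, against 0.01 over all genes tested. With the GC offset 96 of the 220 fell, with the length offsets 46, and with library A as the only TRAM2-KO1 library 77, where 1.34% of all genes did. Without TRAM2-KO1 A 127 fell, but these were only 9.31% of all genes that fell in that fit. In the other alternatives the share ranged from 20.8% with no expression filter to 47.9% with the length offsets. At an unadjusted p under 0.05, 137 of the 220 were lower and 8 higher, against 10.0% and 8.51% of all genes, and DESeq2 found the same number of risers as edgeR. The lists were chosen with earlier results of these data known, and overlap in part.

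**Figure D4:**
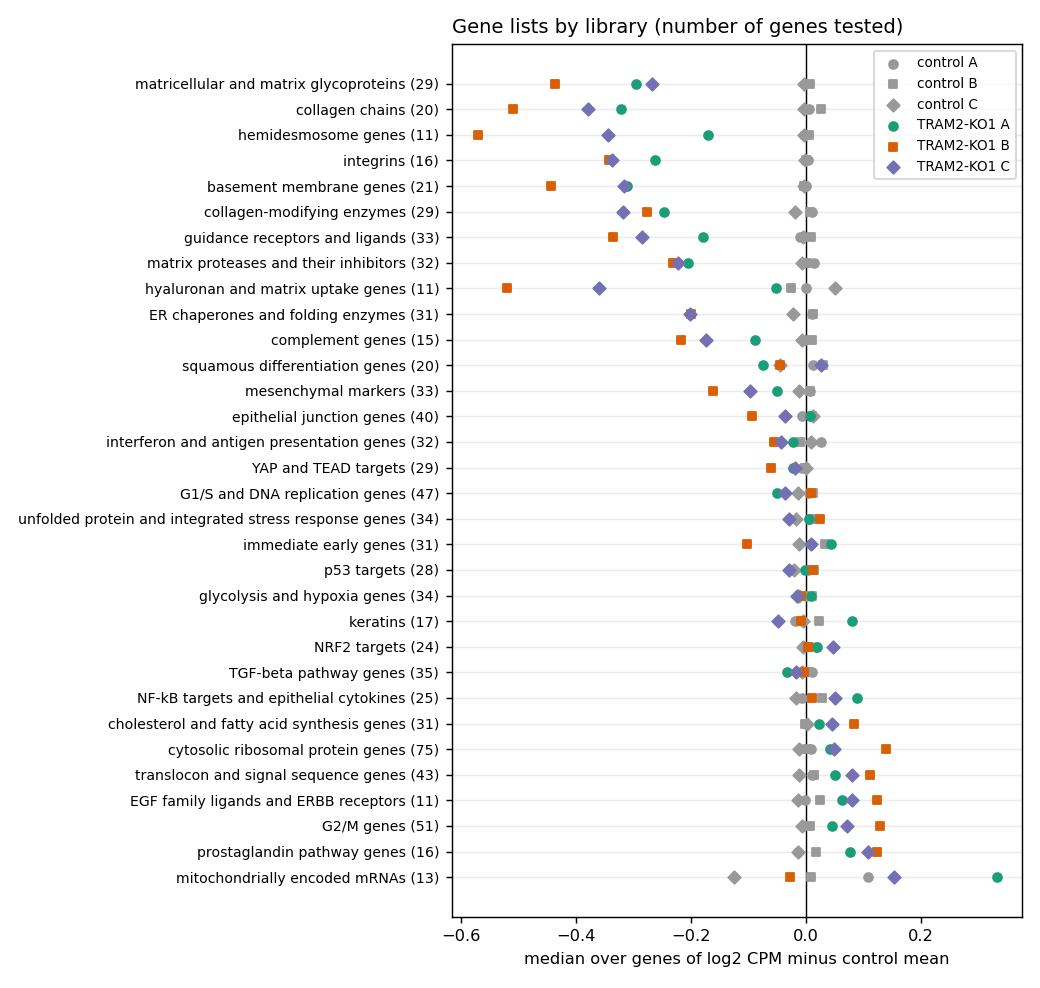
Median over the genes of each list of log2 CPM minus the control mean (x axis), with one point per library and the number of genes tested in brackets. Lists of matrix, integrin and ER folding genes lie left of the controls in all 3 TRAM2-KO1 libraries, and most other lists lie within 0.15 of 0.

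The basement membrane genes that passed the test were lower in each case. The basement membrane is the sheet of laminin, collagen IV, nidogen and perlecan on which epithelial cells rest. Of 21 measured genes of this sheet, 12 fell and 0 rose, with a median of -0.33 and with medians of -0.31, -0.44 and -0.32 in TRAM2-KO1 A, B and C. LAMA3 and LAMB3 encode the alpha and beta chains of laminin-332, the main laminin under epithelial cells. LAMA3 stood at 1924, 1928 and 1937 CPM in controls and 1435, 1437 and 1520.1 CPM in TRAM2-KO1, a change of -0.40 (adjusted p = 4.12e-05, SE 0.0287). LAMB3 changed by -0.43 (adjusted p = 0.0062, SE 0.0682). LAMB3 read 974, 788 and 845 CPM in A, B and C against 1178, 1186 and 1159 CPM in controls, so that library B was lowest. LAMC1 and LAMB1, chains of other laminins, changed by -0.43 (SE 0.0396) and -0.33 (SE 0.0238). PXDN, the peroxidasin that crosslinks collagen IV, went from 457, 447 and 454 to 290.0, 253 and 287 CPM, with a log2 fold change of -0.71 (adjusted p = 2.23e-05, SE 0.0468). HSPG2 (perlecan) and AGRN (agrin), large heparan sulfate proteoglycans with GC contents of 64.5% and 67.9%, were less even. HSPG2 read 86.9, 58.1 and 80.9 CPM against 116, 114 and 141 CPM in controls, and AGRN 239, 138 and 174 CPM against 309, 314 and 314 CPM. Their log2 fold changes of -0.71 (adjusted p = 0.0237, SE 0.142) and -0.76 (adjusted p = 0.0233, SE 0.151) became -0.46 (adjusted p = 0.0564) and -0.42 (adjusted p = 0.000154) with the GC offset. Both no longer passed when any 1 of the 3 controls or TRAM2-KO1 C was left out, with adjusted p values up to 0.102 and 0.101. With a library left out, 9 to 14 genes of the list fell, with the GC offset 12 did, and with the length offsets 7 did. LAMC1, HSPG2 and AGRN were the genes named here that did not pass with them (adjusted p = 0.0565, 0.226 and 0.331).

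Both chains of the most widespread collagen IV, COL4A1 and COL4A2, were lower in every TRAM2-KO1 library. COL4A1 (ENSG00000187498, chromosome 13, 110801310 to 110959504, GRCh37) went from 586, 585 and 583 CPM in controls to 366, 339 and 362 CPM. Its decrease was of like size in A, B and C, and the log2 fold change was -0.72 (adjusted p = 1.14e-06, SE 0.0312). COL4A2 (ENSG00000134871, chromosome 13, 110958159 to 111165556) went from 913, 926 and 891 to 596, 454 and 539 CPM, lowest in library B, with a log2 fold change of -0.78 (adjusted p = 0.000257, SE 0.0759), or -0.59 (adjusted p = 1.02e-06) with the GC offset. The genes stand head to head and share the stretch of DNA between their start sites, which is shown because both fell. Their annotated spans overlap at the 5′ ends on opposite strands, where reads may be shared. The stretch is given on the plus strand of GRCh38.p14 as RefSeq has it, chr13:110307158-110307283, 126 bases, with the 1 CCAAT box (CCAAT, or ATTGG on the other strand) in capitals.
COL4A1 to COL4A2: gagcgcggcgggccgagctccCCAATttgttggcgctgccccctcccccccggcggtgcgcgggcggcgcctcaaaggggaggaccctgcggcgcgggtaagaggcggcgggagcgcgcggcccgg
CCAAT on either strand was present in the promoters (RefSeq windows of 300 bases around the start) of 17 of the 48 protein-coding genes called lower that had a promoter sequence, or 35.4%, against 36.9% of 10205 promoters of tested genes. GGAATG on either strand, the core motif of the TEAD partners of YAP, was in 4 of the 48 (8.33%), against 10.9% of all. These matches describe letters and not binding. Of the other collagen IV chains, COL4A4 and COL4A5 changed by -0.48 (adjusted p = 7.52e-05, SE 0.0383) and -0.31 (adjusted p = 0.000738, SE 0.0352). Neither passed with the length offsets, at -0.34 (adjusted p = 0.118) and -0.26 (adjusted p = 0.166).

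Among all collagen chains, 11 of 20 measured genes fell and 0 rose, with a median of -0.36 (-0.32, -0.51 and -0.38 in TRAM2-KO1 A, B and C). Collagens give tissues their tensile strength, and 20 of the 44 listed genes passed the filter on low counts. COL8A1, a short-chain network collagen, went from 488, 483 and 484 to 381, 384 and 381 CPM, with nearly the same level in all 3 TRAM2-KO1 libraries, and a log2 fold change of -0.34 (adjusted p = 2.45e-05, SE 0.0231). COL6A1 and COL6A3 encode chains of collagen VI, which forms beaded filaments around cells. COL6A1 stood at 63, 63.2 and 59.6 CPM in controls and 42.1, 29.1 and 33.5 CPM in TRAM2-KO1, and its change of -0.82 (adjusted p = 0.00216, SE 0.11) was -0.60 with the GC offset. COL6A3 changed by -0.68 (adjusted p = 0.00316, SE 0.0973), and fell to 34.6, 34.6 and 38.5 CPM from 56.7, 55.5 and 60.6 CPM. COL5A3, a chain of collagen V, was at 2.57, 2.46 and 1.97 CPM in controls and at 0.995, 0.416 and 0.739 CPM in TRAM2-KO1, so that its change of -1.67 (adjusted p = 0.00862, SE 0.278) rests on 9 to 27 reads per TRAM2-KO1 library. At 64.2% GC it was -1.44 (adjusted p = 0.00663) with the GC offset, and with library A as the only TRAM2-KO1 library it did not pass, at -1.23 (adjusted p = 0.155). COL1A1, a chain of collagen I, was near the limit of detection, at 0.735, 1.07 and 0.779 CPM in controls and 0.958, 0.231 and 0.778 CPM in TRAM2-KO1, and its log2 fold change of -0.35 (adjusted p = 0.687, SE 0.404) did not pass the test. COL17A1, the transmembrane collagen of hemidesmosomes, changed by -0.22 (adjusted p = 0.00445, SE 0.0333). With any 1 library left out, 9 to 13 collagen genes fell, with the GC offset 11 did, at a median of -0.28, and with the length offsets 5 did. COL8A1, COL5A3 and COL17A1 did not pass with the length offsets, at -0.24 (adjusted p = 0.443), -1.84 (adjusted p = 0.085) and -0.12 (adjusted p = 0.435). The GC offset put COL17A1 at -0.15 (adjusted p = 0.0108).

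Many enzymes that modify and crosslink collagen were lower too. Of 29 measured, 15 fell and 1 rose, at a median of -0.27, or -0.25, -0.28 and -0.32 by library. PLOD1 and PLOD2, lysyl hydroxylases, changed by -0.47 (adjusted p = 6.95e-05, SE 0.0372) and -0.39 (adjusted p = 6.37e-05, SE 0.0301). PLOD2, a GC-poor gene (35.5% GC), went from 1298, 1288 and 1277 to 952, 1008 and 992 CPM, lowest in library A. FKBP9, a prolyl isomerase of the ER, read 247, 242 and 247 CPM in controls and 185, 185 and 185 CPM in TRAM2-KO1, with a log2 fold change of -0.41 (adjusted p = 1.24e-05, SE 0.0248). LOX, the lysyl oxidase that crosslinks collagen and elastin outside the cell, changed by -0.26 (adjusted p = 0.000507, SE 0.0273). P4HA2 and P4HA1, the catalytic chains of prolyl 4-hydroxylase, changed by -0.23 (adjusted p = 0.00312, SE 0.0323) and -0.21 (adjusted p = 0.0305, SE 0.0444). P4HA1 no longer passed when any 1 control or TRAM2-KO1 C was left out (adjusted p up to 0.119). With the length offsets 9 genes of this list fell. The 1 gene that rose was FKBP14, another ER prolyl isomerase, at 0.35 (adjusted p = 0.000774, SE 0.0395), named after its value was seen. P3H1 and FSTL1 had been singled out by the study through their protein levels. For FSTL1 the study reported lower protein but unaltered mRNA after TRAM2 knockout, from qRT-PCR and RNA sequencing. P3H1, a prolyl 3-hydroxylase, went from 61.4, 62 and 57.2 to 44.6, 44 and 45.6 CPM, a log2 fold change of -0.43 (adjusted p = 0.000199, SE 0.0401). FSTL1, a secreted glycoprotein of the follistatin family, went from 870.4, 871 and 859 to 754, 799.9 and 755 CPM, and its change of -0.17 (adjusted p = 0.00814, SE 0.0284) was the smaller of the 2 and did not pass with the length offsets. Neither reached 0.5 on the log2 scale, the limit that the study used for its RNA calls, while both passed the test at any size here. The study chose both, so their direction is not independent evidence. P4HA1 and FKBP14 did not pass with the length offsets either (adjusted p = 0.177 and 0.152).

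Integrins, the receptors through which cells hold the matrix, were lower wherever they passed the test. Of 16 measured integrin genes 10 fell and 0 rose, with a median of -0.34 and medians of -0.26, -0.34 and -0.34 in TRAM2-KO1 A, B and C. ITGB6, whose product pairs with the alpha v chain and activates latent TGF-beta, went from 219, 223 and 214 CPM in controls to 136, 147 and 141 CPM, lowest in library A, with a log2 fold change of -0.63 (adjusted p = 6.06e-06, SE 0.0339). ITGAV, the alpha v chain, changed by -0.37 (adjusted p = 7.52e-05, SE 0.0295), from 335, 345 and 342 to 257, 269 and 265 CPM. ITGA5, the alpha chain of the fibronectin receptor, read 132, 127 and 127 CPM in TRAM2-KO1 against 183, 185 and 185 CPM in controls and changed by -0.52 (adjusted p = 1.87e-05, SE 0.0337). ITGA1, the alpha chain of a collagen receptor, changed by -0.58 (adjusted p = 0.000105, SE 0.0484), from 50.8 ± 0.622 CPM to 34 ± 2.12 CPM (mean ± SD, n = 3 each). ITGA3 and ITGA6, which pair with beta chains to bind laminin, changed by -0.50 (adjusted p = 0.000232, SE 0.0482) and -0.36 (adjusted p = 0.000184, SE 0.0326). With the GC offset ITGA3, at 61.3% GC, changed by -0.32 and ITGA6, at 42.5% GC, by -0.38. ITGB4, the beta chain of hemidesmosomes, stood at 523, 536 and 525 CPM in controls and at 522, 356 and 432 CPM in TRAM2-KO1. Library A was at the level of controls and libraries B and C below it, and the log2 fold change of -0.27 (adjusted p = 0.206, SE 0.105) did not pass the test. ITGA1 and ITGA3 did not pass with the length offsets (adjusted p = 0.257 and 0.051), with which 6 integrin genes fell.

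Hemidesmosomes anchor basal epithelial cells to the laminin beneath them. Of 11 measured genes 6 fell, among them LAMB3, LAMA3, ITGA3, ITGA6 and COL17A1, and 0 rose. The list had a median of -0.36, with -0.17, -0.57 and -0.34 in TRAM2-KO1 A, B and C. With the GC offset the same number fell and the median was -0.15. Without TRAM2-KO1 A, 10 of the 11 fell, and with the length offsets 4 did. The genes named encode laminin chains, integrin alpha chains and a transmembrane collagen.

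Among 29 measured genes of secreted matrix glycoproteins 12 fell, 1 rose and 16 did not pass the test, with a median of -0.36 (-0.30, -0.44 and -0.27 by library). POSTN (periostin), a matricellular protein that binds integrins, went from 340.0, 341 and 341 CPM to 204, 215 and 214 CPM, with a log2 fold change of -0.69 (adjusted p = 2.32e-06, SE 0.0329). The controls were nearly equal and library A was lowest. DCN (decorin), a small proteoglycan that binds collagen fibrils, stood at 40.2, 41.9 and 42.7 CPM in controls and 28, 30.7 and 29.5 CPM in TRAM2-KO1, a change of -0.50 (adjusted p = 0.00147, SE 0.0624). THBS1 (thrombospondin 1) went from 9293, 9423 and 9608 to 7489, 6885 and 7275 CPM, with a change of -0.39 (adjusted p = 7.52e-05, SE 0.0309). LTBP2, LTBP1 and LTBP3 encode latent TGF-beta binding proteins of the matrix. They changed by -0.57 (adjusted p = 0.000184, SE 0.0518), -0.32 (adjusted p = 0.00252, SE 0.0435) and -0.74 (adjusted p = 0.00392, SE 0.109), and LTBP3, at 67.7% GC, by -0.40 with the GC offset. TGFBI, a TGF-beta induced matrix protein, changed by -0.25 (adjusted p = 0.000189, SE 0.0234). FN1 (fibronectin), at 34641 ± 2432 CPM in controls and 26408 ± 1999 CPM in TRAM2-KO1 (mean ± SD, n = 3 each), changed by -0.39 (adjusted p = 0.00644, SE 0.0619), and was named after its value was seen. With the length offsets 4 genes of the list fell, and DCN, LTBP1, LTBP3 and TGFBI did not pass (adjusted p = 0.0514, 0.233, 0.242 and 0.186). The 1 gene that rose, CCN2, is named below with the YAP targets.

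Of mesenchymal markers as a wider list, 7 of 33 fell and 0 rose, with a median of -0.09. The 7 genes that fell are matrix or secreted genes and MME, a surface peptidase. Without TRAM2-KO1 A, 11 fell. VIM (vimentin), the intermediate filament gene named after its value was seen, stood at 526, 539 and 521 CPM in controls and 510.1, 488 and 500.1 CPM in TRAM2-KO1, a log2 fold change of -0.08 (adjusted p = 0.164, SE 0.0281) that did not pass the test. MME did not pass with the length offsets (adjusted p = 0.211).

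Proteases that act on the matrix and their inhibitors had 11 of 32 genes that fell and 0 that rose, at a median of -0.23. The medians were alike in the 3 TRAM2-KO1 libraries (-0.21, -0.23 and -0.22). MMP14, a membrane-bound collagenase, went from 315, 311 and 306 to 214, 189 and 203 CPM, with a change of -0.62 (adjusted p = 6.18e-05, SE 0.0477). ADAMTS12 and HTRA1, secreted proteases, changed by -0.42 (adjusted p = 0.000115, SE 0.036) and -0.33 (adjusted p = 0.000156, SE 0.0295). CTSB, the lysosomal protease cathepsin B, changed by -0.29 (adjusted p = 0.000232, SE 0.0283), from 764 ± 15.2 CPM to 622 ± 13.6 CPM (mean ± SD, n = 3 each).

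Chaperones and folding enzymes of the ER lumen had a like, lower median in all 3 TRAM2-KO1 libraries. Of 31 genes 17 fell and 0 rose, with medians of -0.20, -0.20 and -0.20 in A, B and C. PDIA4, a protein disulfide isomerase, went from 339, 348 and 341 CPM in controls to 211, 202 and 206 CPM. The TRAM2-KO1 libraries were nearly equal, and the log2 fold change was -0.73 (adjusted p = 2.97e-07, SE 0.0271). HYOU1, an HSP70-like nucleotide exchange factor of the ER, read 206, 205 and 202 CPM in controls and 149, 147 and 149 CPM in TRAM2-KO1, with a log2 fold change of -0.46 (adjusted p = 7.04e-06, SE 0.0261). HSP90B1, the ER member of the HSP90 family, went from 1034, 1046 and 1015 to 830.1, 884 and 839.7 CPM and changed by -0.28 (adjusted p = 0.000507, SE 0.0295). CALR (calreticulin), a lectin chaperone for glycoproteins, changed by -0.26 (adjusted p = 0.00075, SE 0.0294), and TXNDC5, a disulfide isomerase, by -0.24 (adjusted p = 0.000402, SE 0.0249). HSPA5, the ER HSP70 chaperone BiP, changed by -0.19 (adjusted p = 0.00206, SE 0.0257), and was named after its value was seen. Without control A, 11 genes fell, without control B 12, without TRAM2-KO1 A 20 and with the length offsets 6. CALR was among those that did not pass with these offsets (adjusted p = 0.0973).

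The unfolded protein response and the integrated stress response, which raise many of these chaperones when misfolded proteins accumulate, had 4 of 34 genes that fell and 2 that rose, at a median of -0.03. The shares were 11.8% and 5.88%, against 2.15% and 0.753% of all genes. Without TRAM2-KO1 A, 7 fell. DDIT4, a stress-induced inhibitor of mTOR signalling, changed by -0.51 (adjusted p = 0.000649, SE 0.0565), from 69.7, 69 and 69.6 to 51.1, 48.4 and 46.4 CPM. SEL1L and OS9, of the pathway that degrades misfolded ER proteins, changed by -0.28 (adjusted p = 0.00826, SE 0.0459) and -0.24 (adjusted p = 0.00161, SE 0.0306). ATF3, a stress-induced transcription factor, and SLC7A11, the cystine transporter, rose, at 0.42 (adjusted p = 0.0384, SE 0.0925) and 0.29 (adjusted p = 0.00928, SE 0.0492). ATF3 was low (10.4, 10.8 and 9.65 CPM in TRAM2-KO1 against 8.49, 7.42 and 7.09 CPM) and lost its call without control B or C or without TRAM2-KO1 B or C (adjusted p up to 0.16). SLC7A11 lost it without control B or without TRAM2-KO1 C (adjusted p up to 0.0624). CEBPB, a transcription factor at 66.2% GC, changed by -0.27 (adjusted p = 0.0377, SE 0.0582), and with the GC offset by 0.05 (adjusted p = 0.861). CEBPB was also past the test no more when a control or TRAM2-KO1 B or C was left out (adjusted p up to 0.145). With the length offsets SEL1L, OS9, ATF3 and CEBPB did not pass (adjusted p = 0.313, 0.187, 0.266 and 0.214), nor did SLC7A11, which was then at 0.06 (adjusted p = 0.882).

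Among translocon and signal sequence genes, the surroundings of TRAM2, more rose than fell in the main fit. Of 43 genes 2 fell (4.65%, against 2.15% of all genes), TRAM2 itself and NOMO1, and 5 rose (11.6%, against 0.753%). The median was 0.07, with 0.05, 0.11 and 0.08 in TRAM2-KO1 A, B and C. At an unadjusted p under 0.05, 17 were higher (39.5%, against 8.51% of all genes) and 7 lower (16.3%, against 10.0%). By DESeq2 8 rose (18.6%, against 1.23%) and 5 fell (11.6%, against 3.14%). NOMO1, a translocon-associated protein whose reads may be shared with near-identical NOMO copies, went from 225, 229 and 209.7 to 169, 153 and 160.0 CPM, a change of -0.46 (adjusted p = 0.000423, SE 0.0477). TUSC3, a subunit of the oligosaccharyltransferase, rose from 159, 162 and 159 to 186, 201 and 185 CPM, a change of 0.25 (adjusted p = 0.00262, SE 0.0349). SRPRB, a subunit of the receptor for the signal recognition particle, changed by 0.18 (adjusted p = 0.0236, SE 0.0357), and TRAM1, the paralog of TRAM2 (named after its value was seen), by 0.15 (adjusted p = 0.0342, SE 0.0317). TRAM1 stood at 618, 634 and 624 CPM in controls and 663, 715 and 700.4 CPM in TRAM2-KO1. SRPRB no longer passed when any 1 control or TRAM2-KO1 C was left out (adjusted p up to 0.12), and TRAM1 no longer passed when any 1 library other than TRAM2-KO1 A was left out (up to 0.172). The number of genes of the list that rose was 2 when any 1 control was left out, 14 without TRAM2-KO1 A, 3 without B and 2 without C. The number that fell was 5 without TRAM2-KO1 A and 2 with any other library left out, so that several of these fits gave a tie. With the GC offset 6 rose and 4 fell, and with the length offsets 2 rose and 2 fell. MAGT1, the remaining gene of the list with a large value, is treated with the genes that rest on single transcripts. SRPRB and TRAM1 did not pass with the length offsets (adjusted p = 0.346 and 0.357).

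Guidance ligands and receptors, which direct growing axons and vessels and are widely made by epithelia, had 12 of 33 genes that fell and 0 that rose, at a median of -0.25 (-0.18, -0.34 and -0.29 by library). SLIT3, a secreted ligand of ROBO receptors, went from 14.1, 13.7 and 15 CPM to 6.48, 6 and 6.65 CPM, and was at less than 50% of the control mean in all 3 libraries, with a log2 fold change of -1.16 (adjusted p = 0.000594, SE 0.126). NRP1 and NRP2 (neuropilins) changed by -0.33 (adjusted p = 0.00037, SE 0.0336) and -0.38 (adjusted p = 0.00438, SE 0.0562), and the semaphorins SEMA7A and SEMA3C by -0.42 (adjusted p = 0.000771, SE 0.0476) and -0.24 (adjusted p = 0.00158, SE 0.031). SLIT3 was with the length offsets at -0.57 (adjusted p = 0.26) and NRP2 at -0.70 (adjusted p = 0.543), neither past the test, and with the GC offset SEMA7A was at -0.26 (adjusted p = 0.00145). The count was 6 without control A or B, 8 without TRAM2-KO1 B or C, 19 without TRAM2-KO1 A and 3 with the length offsets.

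Of 11 genes for hyaluronan turnover and matrix uptake, 4 fell and 0 rose, and the medians of -0.05, -0.52 and -0.36 set library A near the controls. MRC2, an endocytic receptor for collagen, was low (6.69, 6.19 and 5.04 CPM in controls, 3.13, 2.82 and 3.07 CPM in TRAM2-KO1) and changed by -0.99 (adjusted p = 0.00187, SE 0.129). CEMIP and CEMIP2, which take part in hyaluronan breakdown, changed by -0.82 (adjusted p = 0.0291, SE 0.17) and -0.50 (adjusted p = 1.48e-05, SE 0.0315). CEMIP2 went from 372, 366 and 379 to 257, 259.8 and 270.2 CPM in a GC-poor mRNA (44.3% GC). LRP1, an endocytic receptor, stood at 148, 148 and 194 CPM in controls, among which C was highest, and at 100.1, 92.2 and 121 CPM in TRAM2-KO1. Its change of -0.64 (adjusted p = 0.0334, SE 0.137) was -0.49 (adjusted p = 0.136) with the GC offset. The count of genes that fell was 2 when any 1 control or TRAM2-KO1 B was left out, and 0 with the length offsets, where MRC2 had an adjusted p of 0.0527, CEMIP 0.139, CEMIP2 0.154 and LRP1 0.516. CEMIP lost its call when any 1 library other than TRAM2-KO1 A was left out (adjusted p up to 0.119) and LRP1 when any 1 control or TRAM2-KO1 B was (up to 0.119).

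Of 40 junction and epithelial identity genes 5 fell (12.5%, against 2.15% of all genes) and 1 rose, at a median of -0.04. The genes that fell include cadherins and a surface protease with its inhibitor. ST14, the transmembrane serine protease matriptase, went from 18.6, 19.3 and 19.7 CPM to 12.5, 8.82 and 10.5 CPM, lowest in library B, with a log2 fold change of -0.84 (adjusted p = 0.00151, SE 0.106), or -0.66 (adjusted p = 7.53e-05) with the GC offset. SPINT1, its cognate inhibitor, went from 42.5, 43.9 and 41.7 to 32.2, 30.5 and 29.1 CPM, a change of -0.48 (adjusted p = 0.00241, SE 0.0655). CDH1 and CDH3, E-cadherin and P-cadherin, changed by -0.41 (adjusted p = 0.0036, SE 0.0597) and -0.47 (adjusted p = 0.000402, SE 0.0485). CDH1 read 151, 164 and 156 CPM in controls and 108, 124 and 123 CPM in TRAM2-KO1, lowest in library A. PERP, a desmosomal tetraspan protein, rose from 202, 203 and 198 to 232, 243 and 229 CPM, a change of 0.22 (adjusted p = 0.00232, SE 0.0298). Without TRAM2-KO1 A, 10 genes of this list fell, and with the length offsets 2 did, CDH1 and CDH3 not among them (adjusted p = 0.214 and 0.298). Of 17 keratin genes 0 fell and 0 rose. KRT5, a basal keratin, read 1114, 1145 and 1125 CPM in controls and 1078, 1038 and 1055 CPM in TRAM2-KO1, with a log2 fold change of -0.09 (adjusted p = 0.107, SE 0.0272), and KRT7, a simple epithelial keratin, had one of -0.11 (adjusted p = 0.267, SE 0.051). At an unadjusted p under 0.05, 3 keratins were lower and 1 was higher, and by DESeq2 1 fell. Without TRAM2-KO1 A, 3 fell. With the GC offset 2 rose, and KRT7 was at 0.09 (adjusted p = 0.224), the sign turned, without passing the test.

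Membrane proteins and a complement protease were also among the 20 most negative calls. ALPP, placental alkaline phosphatase, a membrane-anchored enzyme, went from 213, 211 and 208 to 116, 99.7 and 102 CPM, a change of -0.99 (adjusted p = 5.13e-06, SE 0.0521), and its reads may be shared with near-identical paralogs. ROS1, a receptor tyrosine kinase, stood at 46.2, 42.5 and 48.4 CPM in controls and 26.4, 28.6 and 29.5 CPM in TRAM2-KO1, lowest in library A, and changed by -0.70 (adjusted p = 0.000154, SE 0.0616). VASN, a TGF-beta binding membrane protein, and GPC1, a glypican, changed by -0.91 (adjusted p = 0.0158, SE 0.169) and -0.74 (adjusted p = 0.0153, SE 0.136). At 66.2% and 66.7% GC their library values spread widely, with deviations of -0.59, -1.40 and -0.87 for VASN and -0.38, -1.09 and -0.83 for GPC1 in A, B and C. Both lost their calls when any 1 control or TRAM2-KO1 C was left out (adjusted p up to 0.0777 and 0.0786). C1S, a protease of the classical complement pathway, was low, at 1.96, 2.17 and 2.21 CPM in controls and 0.995, 1.2 and 0.856 CPM in TRAM2-KO1, and changed by -1.06 (adjusted p = 0.0278, SE 0.218). It lost its call when any 1 control or TRAM2-KO1 C was left out (adjusted p up to 0.106). Among complement genes, 3 of 15 fell, C1S and C3 among them, and 1 rose. C3, the central complement component, changed by -0.37 (adjusted p = 0.00014, SE 0.032), from 353, 358 and 356 to 287, 267 and 272 CPM. CD59, the membrane inhibitor of complement lysis, rose from 1187, 1196 and 1183 to 1371, 1434 and 1382 CPM, a change of 0.23 (adjusted p = 0.000585, SE 0.0251). VASN, GPC1, C1S and C3 did not pass with the length offsets (adjusted p = 0.0896, 0.16, 0.173 and 0.188), and the GC offset put GPC1 at -0.43 (adjusted p = 5.9e-05).

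**Figure D5:**
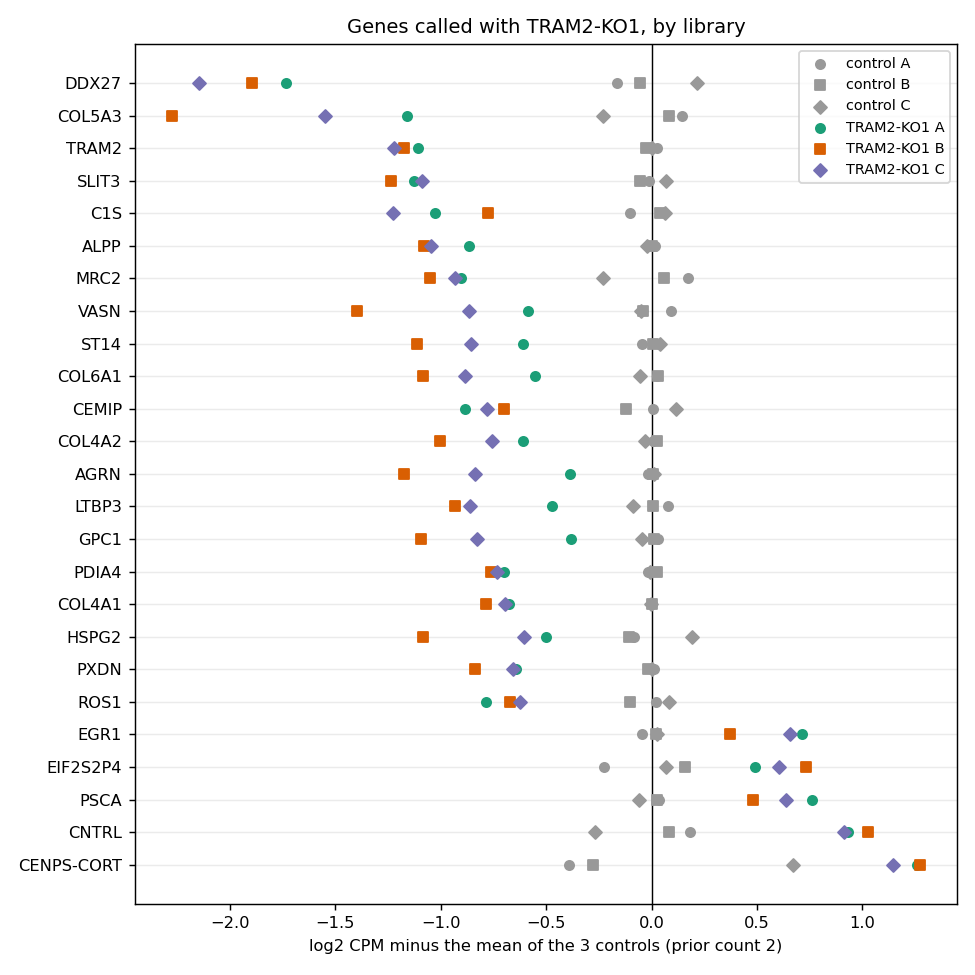
Log2 CPM minus the mean of the 3 controls (x axis) for the 20 most negative genes called with a mean of at least 1 CPM and for 5 of the genes called higher, with one point per library. TRAM2, PDIA4 and COL4A1 fell alike in the 3 TRAM2-KO1 libraries, while AGRN, GPC1 and VASN fell least in library A. MAGT1 and RPSA2 were left out since their values lie beyond this scale.

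Fewer genes rose, mostly by less than 0.5 on the log2 scale. EGR1, an immediate early transcription factor, went from 63.7, 66.7 and 67 CPM in controls to 108, 85.2 and 104 CPM in TRAM2-KO1, lowest in library B, with a log2 fold change of 0.59 (adjusted p = 0.00308, SE 0.0837). PSCA, a small GPI-anchored surface antigen, went from 41.8, 41.6 and 39.2 to 69.3, 57 and 63.6 CPM. Its change of 0.63 (adjusted p = 0.00038, SE 0.0645) was 0.86 (adjusted p = 1.02e-06) with the GC offset. The order A, C, B of its libraries was that of EGR1. It was also the order of the libraries' correlations with GC content (-0.02, -0.39 and -0.51). PSCA and EGR1 have 63.2% and 55.3% GC, and the cause of the order was not tested. Of 31 immediate early genes 4 rose, EGR1, ATF3, KLF6 and DUSP5, and 0 fell, at a median of -0.02. The 4 were 12.9% of the list, against 0.753% of all genes. At an unadjusted p under 0.05, 8 were lower (25.8%, against 10.0% of all genes) and 6 higher (19.4%, against 8.51%). DESeq2 gave 4 that rose and 2 that fell. With the GC offset 5 rose and 2 fell, and without TRAM2-KO1 A 4 rose and 4 fell. KLF6, a Krüppel-like factor, rose from 388, 402 and 386 to 449, 453 and 455 CPM, a change of 0.21 (adjusted p = 0.00252, SE 0.0284), and DUSP5, a phosphatase of ERK, changed by 0.24 (adjusted p = 0.0157, SE 0.0451). Without control C, 2 genes of this list rose, and with the length offsets 1, since KLF6 was then at 0.11 (adjusted p = 0.503), DUSP5 at 0.14 (adjusted p = 0.441) and ATF3 did not pass. DUSP5 lost its call without control A or C (adjusted p up to 0.0564). The stretch upstream of EGR1 is shown since EGR1 is a well-known target of the serum response factor, which binds CArG boxes. It is given on the plus strand of GRCh38.p14, chr5:138465349-138465478, 130 bases that end just before the start site, with 2 CArG boxes in capitals.
EGR1 upstream: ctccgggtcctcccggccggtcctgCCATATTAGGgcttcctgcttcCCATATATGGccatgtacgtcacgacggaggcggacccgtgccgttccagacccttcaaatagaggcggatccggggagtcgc
A CArG box was present in 1.01% of the 10205 promoters (103), among them that of ITGB6, which fell.

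Of 11 genes of EGF ligands and ERBB receptors, 2 rose and 0 fell. ERRFI1, a feedback inhibitor of the EGF receptor, rose from 147, 148 and 145 to 171, 180.1 and 182 CPM, a change of 0.28 (adjusted p = 0.000774, SE 0.0314). The other was HBEGF, at 0.20 (adjusted p = 0.049, SE 0.0466), which lost its call when any 1 library other than TRAM2-KO1 A was left out (adjusted p up to 0.2). PTGS2, the inducible cyclooxygenase, went from 26.4, 27.8 and 23.1 to 32.6, 36.2 and 37.2 CPM, a change of 0.45 (adjusted p = 0.00647, SE 0.0718), and was the 1 of 16 prostaglandin genes that rose. PTGFRN, a membrane protein named as a regulator of the prostaglandin F2 receptor, fell, at -0.47 (adjusted p = 4.85e-05, SE 0.0348). Of 25 NF-kB targets and cytokines 2 fell (8%, against 2.15% of all genes) and 1 rose (4%, against 0.753%), at a median of 0.04. At an unadjusted p under 0.05, 3 were lower (12%, against 10.0% of all genes) and 7 higher (28%, against 8.51%). DESeq2 gave 2 that fell and 2 that rose. ICAM1 and CSF1 fell, at -0.54 (adjusted p = 0.0214, SE 0.106) and -0.51 (adjusted p = 0.00613, SE 0.0806), and IL18 rose, at 0.26 (adjusted p = 0.00773, SE 0.0418). ICAM1 lost its call without control B or C or without TRAM2-KO1 B or C (adjusted p up to 0.0954). B2M, the light chain of MHC class I, rose from 175, 183 and 176 to 216, 241 and 229 CPM, a change of 0.36 (adjusted p = 0.000738, SE 0.0407), whereas TAPBP, the tapasin that loads peptides onto class I in the ER, went from 86.2, 84.4 and 82.4 to 59.6, 50.5 and 57.5 CPM, a change of -0.59 (adjusted p = 0.000199, SE 0.0554). TGFBR2, the type II TGF-beta receptor, rose, at 0.18 (adjusted p = 0.00194, SE 0.0242). Of 35 genes of the TGF-beta pathway 6 fell and 1 rose, at a median of 0.02, and without TRAM2-KO1 A 10 fell. Those that fell include 3 latent TGF-beta binding proteins, and TGFBR2 was the 1 that rose. HBEGF, PTGS2, PTGFRN, ICAM1, CSF1 and IL18 did not pass with the length offsets (adjusted p = 0.298, 0.274, 0.133, 0.085, 0.558 and 0.131), and 2 genes of the TGF-beta pathway fell.

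YAP and TEAD targets moved in both directions. Of 29 genes 3 fell (10.3%, against 2.15% of all genes) and 3 rose (10.3%, against 0.753%). The median was -0.03 (-0.02, -0.06 and -0.02 by library). At an unadjusted p under 0.05, 11 were lower (37.9%, against 10.0% of all genes) and 3 higher (10.3%, against 8.51%). DESeq2 gave 3 that fell and 3 that rose. CRIM1, a transmembrane protein that binds BMPs, went from 719, 715 and 736 to 560.0, 557 and 571 CPM, a change of -0.36 (adjusted p = 0.000154, SE 0.032). NT5E, the ecto-nucleotidase CD73, changed by -0.29 (adjusted p = 0.000938, SE 0.0334), and THBS1 is given above. ANKRD1, an ankyrin repeat protein, rose from 315, 320.2 and 301 to 352, 368 and 363 CPM, a change of 0.21 (adjusted p = 0.0106, SE 0.0366), IGFBP3 changed by 0.16 (adjusted p = 0.0276, SE 0.0335), and CCN2, named after its value was seen, by 0.16 (adjusted p = 0.0291, SE 0.0336). Of these 3 risers 1 passed without control A, 1 without control B, 0 without control C and 0 without TRAM2-KO1 C. The adjusted p reached 0.0703 for ANKRD1, 0.147 for IGFBP3 and 0.177 for CCN2. Without TRAM2-KO1 A, 7 genes of the list fell, and with the length offsets 3 fell and 0 rose. Of the study's other enhancer target genes, CCND1 (cyclin D1) stood at 589, 595 and 591 CPM in controls and 625, 591 and 607 CPM in TRAM2-KO1, and MYC at 117, 111 and 113 and 105, 104 and 103 CPM. Their log2 fold changes of 0.04 (adjusted p = 0.496, SE 0.0274) and -0.13 (adjusted p = 0.0579, SE 0.0319) did not pass the test. KIF18A, a mitotic kinesin, SLC39A1, a zinc transporter, and TMEM158, a membrane protein, had log2 fold changes of 0.08, 0.07 and -0.02, none past the test. With the GC offset KIF18A was at 0.03 and SLC39A1 at 0.16 (adjusted p = 0.0767). TMEM158, at 66.8% GC, turned to 0.32 (adjusted p = 0.343) with it. The study chose this list of 6 genes, TRAM2 among them, and 1 of the 6, TRAM2, fell in the main fit. With the GC offset MYC passed as well (adjusted p = 0.0363), so that 2 of the 6 fell. By DESeq2 2 of the 6 fell too.

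Genes of growth and of general cell state passed the test in small numbers, against 2.15% of all genes that fell and 0.753% that rose. Risers were more frequent among squamous differentiation genes (15%), NRF2 targets (8.33%) and genes of G2 and mitosis (5.88%). Fallers were more frequent among genes of glycolysis and hypoxia (8.82%), interferon response and antigen presentation (6.25%) and G1/S (4.26%). The p53 targets, ribosomal protein genes and mitochondrially encoded mRNAs had 0 in both directions. Of 28 p53 targets, which respond to DNA breaks, 0 fell and 0 rose by edgeR and by DESeq2, at a median of -0.00, and at an unadjusted p under 0.05 3 were lower and 3 higher. Of 51 genes of G2 and mitosis 3 rose, CCNB1, AURKA and PTTG1, at 0.21, 0.17 and 0.20, and 0 fell, at a median of 0.09. DESeq2 gave 5 risers (9.80%, against 1.23% of all genes), and at an unadjusted p under 0.05 23 were higher (45.1%, against 8.51%). By edgeR 0 rose when any 1 control was left out, 16 without TRAM2-KO1 A and 1 without TRAM2-KO1 C. Of 47 genes of G1/S and DNA replication 2 fell, MCM5, a helicase subunit, at -0.23 (adjusted p = 0.00695, SE 0.0375) and CLSPN, a replication checkpoint adaptor, at -0.19 (adjusted p = 0.0134, SE 0.0342). CLSPN lost its call without control A or C or TRAM2-KO1 C (adjusted p up to 0.0786). Among 20 squamous differentiation genes PSCA, SLPI and PADI2 rose and 0 fell, with SLPI, a protease inhibitor, at 0.21 (adjusted p = 0.0109, SE 0.036) and PADI2, a peptidylarginine deiminase, at 0.37 (adjusted p = 0.0197, SE 0.0718). Without control A, 1 of the 3 rose, since SLPI (adjusted p up to 0.0649) and PADI2 (up to 0.0931) lost their calls. The squamous list had a median of -0.10. At an unadjusted p under 0.05, 5 of its genes were lower (25%, against 10.0% of all genes) and 3 higher (15%, against 8.51%). DESeq2 gave 2 that rose, PADI2 not among them, and 0 that fell. Of 34 genes of glycolysis and hypoxia 3 fell and 1 rose. The 3 were ADM and the prolyl 4-hydroxylase chains P4HA2 and P4HA1, given above with the collagen enzymes. ADM, at -0.20 (adjusted p = 0.0414, SE 0.0444), did not pass with the GC or length offsets (adjusted p = 0.302 and 0.31). It lost its call when any 1 library other than TRAM2-KO1 A was left out (up to 0.145). The count of 3 was 1 when any 1 control or TRAM2-KO1 C was left out and 7 without TRAM2-KO1 A. Of 31 sterol and fatty acid genes 1 fell and CYP51A1 rose, at 0.13 (adjusted p = 0.048, SE 0.029), a call it lost when any 1 library other than TRAM2-KO1 A was left out (adjusted p up to 0.196). Of 32 genes of interferon response and antigen presentation 2 fell, TAPBP and HLA-C, both of antigen presentation, and 1 rose, B2M. HLA-C, at -0.28 (adjusted p = 0.0293, SE 0.0576), did not pass with the GC or length offsets (adjusted p = 0.562 and 0.346). In this list 1 gene fell without control A or B or TRAM2-KO1 B or C. Of 24 NRF2 targets 0 fell and 2 rose, SLC7A11 and TXNRD1, the latter a thioredoxin reductase at 0.16 (adjusted p = 0.0191, SE 0.0304). The number that rose was 0 without control B or TRAM2-KO1 C, 1 without control A or C and 5 without TRAM2-KO1 A, and TXNRD1 lost its call when any 1 control or TRAM2-KO1 C was left out (adjusted p up to 0.113). Of 75 ribosomal protein genes 0 passed edgeR's test in either direction, at a median of 0.07. At an unadjusted p under 0.05, 38 ribosomal protein genes were higher (50.7%, against 8.51% of all genes) and 6 lower, and by DESeq2 14 rose (18.7%, against 1.23%) and 3 fell. The 13 mitochondrially encoded mRNAs had a median of 0.15 (0.33, -0.03 and 0.15 by library), and 0 passed by edgeR or DESeq2, with 2 higher at an unadjusted p under 0.05. Without TRAM2-KO1 A counts rose across these lists as they did across all genes. They reached 23 ribosomal protein genes higher and 9 lower, and 3 p53 targets lower and 2 higher. In that fit 9 genes of G1/S and 6 of interferon response and antigen presentation were lower. With the length offsets 0 genes of G2 and mitosis, 0 NRF2 targets and 0 sterol genes rose, and MCM5, CLSPN, SLPI and PADI2 did not pass (adjusted p = 0.173, 0.641, 0.131 and 0.177).

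Some of the largest values rest on single transcripts that were listed at 0 in one group. MAGT1, a subunit of the oligosaccharyltransferase and magnesium transporter, had a gene total of 0.0408 to 0.123 CPM in controls and 25.5, 30.3 and 22.8 CPM in TRAM2-KO1, and 99.9% of that difference came from the transcript ENST00000358075. This transcript had 0 reads in all 3 controls and 686, 655 and 585 reads in TRAM2-KO1 A, B and C. Of the difference of DDX27, an RNA helicase, 90.6% came from ENST00000618172, with 247, 280 and 410 reads in controls and 0 in all TRAM2-KO1 libraries. RPSA2, a copy of a ribosomal protein gene, differed through ENST00000484897, with 0 reads in controls and 117, 60.6 and 914 in TRAM2-KO1. A pseudogene, ENSG00000249741, had 0 reads in controls and 25.7, 13.1 and 12.6 in TRAM2-KO1. FIGNL1, called lower, owed 78.1% of its difference to a transcript with 567 reads in control B and 0 in the other 5 libraries. Other transcripts of such genes may hold the reads in the other group, and 220336 of the 226030 transcripts were assigned to a gene here. Whether transcript assignment shaped these values was not tested. MAGT1, RPSA2 and ENSG00000249741 are among the 8 genes called higher, and DDX27 and FIGNL1 among the 65 called lower. CNTRL, a centrosomal protein, read 11.5, 10.8 and 8.44 CPM in controls and 19.5, 20.8 and 19.2 CPM in TRAM2-KO1, with a change of 0.95 (adjusted p = 0.00695, SE 0.152). CENPS-CORT, a read-through gene, and the pseudogene EIF2S2P4 changed by 1.19 (adjusted p = 0.0281, SE 0.245) and 0.60 (adjusted p = 0.0204, SE 0.117), and overlap or resemble other genes. CENPS-CORT lost its call without control A or B or TRAM2-KO1 B or C (adjusted p up to 0.127), EIF2S2P4 without control A or C or TRAM2-KO1 B or C (up to 0.0785), RPSA2 when any 1 control was left out (up to 0.2), and DDX27 when any 1 library other than TRAM2-KO1 A was left out (up to 0.121). CNTRL, CENPS-CORT, EIF2S2P4, RPSA2 and DDX27 did not pass with the length offsets (adjusted p = 0.074, 0.187, 0.12, 0.12 and 0.0837), and FIGNL1 and ENSG00000249741 did not either (adjusted p = 0.666 and 0.0582).

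Levels of other chromosome 6 genes were examined by position, since a cut can remove chromosome arms. The 416 tested genes on the telomeric side of the cut had a median log2 fold change of -0.02 (-0.00, -0.01 and -0.03 by library), and the 358 on the centromeric side and the long arm one of 0.04. On the telomeric side 6 genes, or 1.44%, fell and 0 rose. Of the centromeric side and long arm 8 genes, or 2.23%, fell and 5 rose, against 2.15% of all genes that fell. Within 5 Mb of the cut, 9 genes on the telomeric side had a median of 0.06 and 20 on the centromeric side one of 0.01. By the test 0 of the 29 were lower, and 1, on the centromeric side, was higher. With the GC offset the medians of the 2 sides were 0.01 and 0.02.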

How the data were processed

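The series holds 9 poly(A) RNA libraries, 3 per sgRNA. The authors trimmed reads with cutadapt and quantified transcripts with Salmon, per the labels. Neither tool versions nor the transcript release or build used are stated: not given in the sources used here. The labels name a TruSeq RNA kit and the study a stranded one. The deposited values are estimated counts, TPM and effective transcript lengths per transcript. Gene totals are sums of the estimated counts of a gene's transcripts, rounded to whole numbers, with transcripts assigned to genes by a GENCODE annotation lifted to GRCh37 (98.4 to 98.5% of the reads, 59294 genes).

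Genes passing filterByExpr (minimum count 10; 15139 genes) were tested with edgeR 4.0.16 in R 4.3.3 on all 9 libraries with TMM scaling, so that the spread was shared by all 3 groups (biological coefficient of variation 5.86%). CPM values are TMM-scaled. Interval and SE come from the same quasi-likelihood fit. Deviations from controls are on log2 CPM with a prior count of 2. DESeq2 1.42.0 was an alternative. The GC offset is a spline with 6 degrees of freedom per library. The script was tested on simulated data.

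The members and gene lists were chosen with earlier results of these data known. Genes named are TRAM2, FSTL1, P3H1, the study's enhancer targets, the 20 most negative and 12 most positive called genes with a known symbol, at least 1 CPM and non-overlapping groups, and the 5 genes of smallest p per list. Genes near the guide's matches, YAP1, FIGNL1, MME, ENSG00000249741 and those marked in the text were named outside this rule. Replicates of a group differed beyond sampling noise (chi-square per degree of freedom 2.12 to 11.4), so none was counted as a duplicate. TPM was used for markers only. TRAM2-KO2 libraries entered the fit and are not described. Promoter sequences came from RefSeq on GRCh38.p14, and the guide, from the list of sgRNAs of the study, was matched to GRCh37. Some genes and sequences that the rules would name are not reported here.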

Additional observations from a re-analysis of the deposited data

How the results depend on the processing

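Against 73 genes called, 65 of them lower, the count was 152 with no expression filter, 46 with the GC offset, 45 with the GC offset and the replicate block, 41 with the length offsets and 42 with library A as the only TRAM2-KO1 library. With 1 library left out it ranged from 51 to 363, the latter without TRAM2-KO1 A. The split of higher against lower genes, 8 against 65, became 12 against 34 with the GC offset, 13 against 32 with the block as well and 41 against 111 with no filter. Chosen after seeing the data, the 6 libraries alone with the GC offset gave 39 and library A alone with the GC offset 42. The replicate block, with the letters A, B and C as a term, gave 76 genes, 70 of them shared. Deviations of same-lettered control and TRAM2-KO1 libraries correlated at 0.05, -0.03 and 0.07, and 2 of the 3 TRAM2-KO1 libraries correlated best with the control of their own letter, so the letters were not taken as pairs. The 6 libraries alone gave 62, RLE size factors 72, the filter at 5 CPM 71 and DESeq2 82. Genes past the test at any size numbered 440, against 112 with the length offsets, 227 with library A alone, 286 with the 6 libraries alone, 662 with DESeq2, 725 with no filter and 243 to 1977 with 1 library left out. The log2 fold change of CEBPB turned from -0.27 to 0.0462 with the GC offset and to 0.0465 with the GC offset and replicate block. The cause of these shifts was not tested. Over named genes and alternatives, 2495 log2 fold changes stayed on their side of the threshold, of which 20, in 9 genes that did not pass either way, turned sign, 271 no longer passed and 89 newly passed.

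Depth limits genes under about 1 CPM, such as COL1A1, where a read more or less moves the value. With 3 libraries a group, and 1 of the TRAM2-KO1 libraries unlike the other 2 in GC-rich transcripts, small changes of GC-rich genes cannot be told apart from that yield. Culture, guide and library preparation cannot be told apart, since no label gives a date or batch.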
